A study of Mus musculus with 10 samples.

Results

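Genes of cholesterol synthesis and of its sterol control were followed in visceral white adipose tissue (WAT) of mice. They were chosen by their symbols, Hmgcs1, Idi1, Fdft1, Sqle and Lss for the enzymes and Srebf2 and Insig1 for the regulators, and make up 7 of the 47937 genes in the count files. All 7 were found and all passed the filter on low counts in each of the 5 comparisons. Bulk mRNA-seq of polyA RNA had been made from 10 C57BL/6 libraries in 4 groups. The standard diet (SD) groups were 3 wild type (Mof+/+) and 3 Mof heterozygous (Mof+/-) libraries from mice of 8 weeks. The high-fat diet (HFD) groups were 2 libraries of each genotype, which the labels give as 27 weeks old after 20 weeks on the diet, so that diet and age cannot be told apart. Mof, listed as Kat8, encodes a histone acetyltransferase, and the Mof+/- mice carry 1 intact copy in all of their cells. In bulk tissue, fewer cells of a type and less RNA per cell cannot be told apart.

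Cholesterol is built from acetyl-CoA through the mevalonate pathway, which first makes isoprene units, joins them to squalene and then closes the ring to lanosterol. The transcription factor SREBP2, encoded by Srebf2, is held with SCAP in the endoplasmic reticulum by the INSIG proteins when sterol is plentiful. When sterol is low it moves to the Golgi, is cut and released, and raises the genes of the pathway together, including Insig1 and Srebf2 itself. Adipocytes make little cholesterol compared with liver but store much of it unesterified in the lipid droplet.

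The counts on genes per library ran from 1044355 in HFD Mof+/- replicate 1 to 17171947 in SD Mof+/- replicate 1, and values are given as CPM, in which the counts of every library are scaled to 1 common total. Kat8 was at 21.1 ± 0.591 CPM (SD, n = 3) in SD Mof+/+ and 14.2 ± 4.04 CPM (SD, n = 3) in SD Mof+/-. Every Mof+/- library was below every Mof+/+ library in CPM, as for 30.6% of all genes tested. The log2 fold change was -0.22 (SE 0.35, edgeR adjusted p = 0.736), and -0.58 when counts were scaled to library totals alone. On HFD, Kat8 was at 18.1 and 19.2 CPM in Mof+/+ against 20.1 and 10.5 CPM in Mof+/-. Xist was at 139, 46.1 and 58.0 CPM in the 3 SD Mof+/- libraries, whose 4 Y-linked genes summed to 0 CPM, and at 0 CPM in the other 7 libraries, whose Y-linked genes summed to 77.6 to 225 CPM. Genotype on SD, diet in Mof+/- and the interaction therefore cannot be told apart from the sex of the mice as these genes show it, although the study's methods give male mice. The headings inside the count files exchange the genotypes of the third SD libraries, whereas these sex-linked genes follow the sample labels. HFD Mof+/- replicate 1 stood apart, with 26.9% of its counts on mitochondrial genes and 81600 CPM on 16 skeletal muscle markers, against 64.4 to 140.4 CPM in the SD and HFD Mof+/+ libraries and 1987 CPM in HFD Mof+/- replicate 2. The levels of the 7 genes in HFD Mof+/- are therefore given for each of its libraries, and their fitted genotype and diet differences also without replicate 1, which leaves 1 library in that group.

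Per kb of exonic length, the order in SD Mof+/+ was led by Insig1 at 99.2 ± 43.2 CPM per kb (SD, n = 3), followed by Hmgcs1 at 41.7 ± 3.70, Fdft1 at 15.9 ± 0.979, Srebf2 at 13.6 ± 2.69, Sqle at 7.21 ± 1.30, Idi1 at 5.05 ± 0.916 and Lss at 3.86 ± 1.25 CPM per kb. Of the neighbours in this order, Fdft1 and Srebf2, Sqle and Idi1, and Idi1 and Lss had overlapping libraries, and the other neighbouring pairs did not overlap. In SD Mof+/- the mean of Hmgcs1, 47.5 ± 25.9 CPM per kb, lay above that of Insig1, 33.3 ± 11.6 CPM per kb, although their libraries overlapped. Sqle was lowest there at 0.931 ± 0.810 CPM per kb. The lengths are unions over all annotated transcripts, from 3093 bases for Insig1 to 10787 bases for Lss, so that rare long transcripts lower the level per kb.

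**Figure D1:**
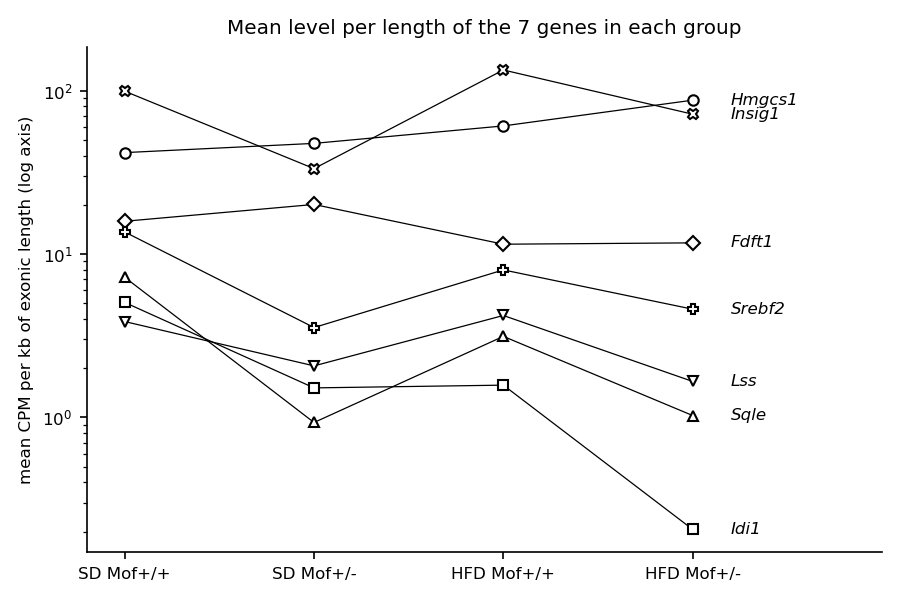
Mean level of each gene in the 4 groups, in CPM per kb of exonic length on a log axis (points are group means, n = 3 for SD and n = 2 for HFD). Insig1 and Hmgcs1 hold the upper 2 places in every group, Fdft1 the place under them, and Idi1 stands lowest at 0.206 CPM per kb in HFD Mof+/-.

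The promoters of 3 of the genes are shown as a description, and no expression result rests on them. Hmgcs1 is the enzyme at the entry of the pathway, with fitted genotype differences above 0 on both diets, and Insig1 and Srebf2 are the regulators, with fitted genotype differences below 0. The windows run from 250 bases before to 50 bases after the RefSeq start on GRCm38.p6, all on the plus strand, at chr13:119690101-119690400 for Hmgcs1, chr5:28071162-28071461 for Insig1 and chr15:82147019-82147318 for Srebf2. Capitals mark the core of a sterol regulatory element, TCACNCCAC, and the CCAAT box, which reads ATTGG where it lies on the other strand.
Hmgcs1: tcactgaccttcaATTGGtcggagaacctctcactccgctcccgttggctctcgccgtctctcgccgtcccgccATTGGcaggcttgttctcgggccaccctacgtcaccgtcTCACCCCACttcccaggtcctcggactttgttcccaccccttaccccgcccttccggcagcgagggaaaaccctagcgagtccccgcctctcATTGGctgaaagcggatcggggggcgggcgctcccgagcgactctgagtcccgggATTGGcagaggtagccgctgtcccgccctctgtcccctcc
Insig1: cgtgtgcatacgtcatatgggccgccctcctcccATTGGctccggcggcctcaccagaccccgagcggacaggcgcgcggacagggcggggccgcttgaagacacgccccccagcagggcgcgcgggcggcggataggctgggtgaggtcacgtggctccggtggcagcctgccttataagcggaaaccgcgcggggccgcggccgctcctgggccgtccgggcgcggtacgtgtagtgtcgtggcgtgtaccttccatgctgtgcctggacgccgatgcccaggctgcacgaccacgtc
Srebf2: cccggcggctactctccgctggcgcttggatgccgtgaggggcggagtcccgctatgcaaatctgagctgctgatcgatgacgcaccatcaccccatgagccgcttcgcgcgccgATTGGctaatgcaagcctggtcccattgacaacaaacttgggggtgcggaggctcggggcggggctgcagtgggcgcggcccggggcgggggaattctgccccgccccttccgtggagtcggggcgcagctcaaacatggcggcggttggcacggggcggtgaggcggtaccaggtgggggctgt
Of the 7 genes, 5 were in the set of RefSeq promoters read here, adding Idi1 and Lss to those printed. Sqle and Fdft1 were not in that set, so no promoter was read for them. TCACNCCAC was in 1 of these 5, Hmgcs1, starting at base -137 from the start, and in 1.24% of all 32851 promoters of this length when both strands were read. CCAAT was in 5 of 5 and in 37.4% of all promoters, with 4 copies in Hmgcs1, 2 in Idi1 and 1 in each of the others. The GC box, GGGCGG, was also in 5 of 5 and in 35.7% of all promoters, and the E-box, CACGTG, was in 1 of 5, Insig1, and in 7.15% of all promoters. Matches are a description of the letters in these windows. Only exact matches were counted, and the Srebf2 window holds tcaccccat, which differs from TCACNCCAC in its last base.

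The first comparison asked how Mof heterozygosity changed WAT on SD. Srebf2 was lower in Mof+/-, and it was the 1 gene of the 7 that passed the adjusted threshold of edgeR. Sqle, Insig1 and Idi1 also had every Mof+/- library below every Mof+/+ library, while Hmgcs1 and Fdft1 had fitted log2 fold changes above 0. With Srebf2, 4 of 7 genes were lower without overlap, against 30.6% of the 13864 genes tested, and 1 of 7 was called, against 5.24% (727 genes, 462 higher and 265 lower). The median log2 fold change was -1.20 over the 7 genes and -0.07 over all genes tested. At an unadjusted p under 0.05, 3 of the 7 had lower and 1 had higher values, against 25.7% of all genes (1954 higher and 1605 lower). DESeq2 called 15.9% of all genes and 3 of the 7, namely Sqle, Srebf2 and Insig1. TMM normalization set the median of all genes to -0.07, where library totals alone gave -0.43. None of the 7 changed direction between these scalings, but their sizes moved. With library totals the log2 fold changes were 0.18 for Hmgcs1, -1.72 for Idi1, 0.34 for Fdft1 and -2.92 for Sqle. They were -0.90 for Lss, -1.94 for Srebf2 and -1.58 for Insig1.

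Hmgcs1 (chromosome 13, 119690379 to 119708260, GRCm38, exons on the plus strand) encodes the cytosolic HMG-CoA synthase. It was at 188, 210.4 and 177 CPM in SD Mof+/+ and at 82.2, 271 and 302 CPM in SD Mof+/-. Replicate 1 of Mof+/- lay below and the other 2 above all Mof+/+ libraries, so the groups overlapped. The log2 fold change was 0.57 (SE 0.45, adjusted p = 0.461), 0.98 without Mof+/- replicate 1 (adjusted p = 0.0517) and 0.19 without Mof+/- replicate 3 (adjusted p = 0.833). Idi1 (chromosome 13, 8885501 to 8892451, plus strand), the isomerase that makes dimethylallyl diphosphate, was at 18.8, 14.1 and 20.3 CPM in Mof+/+ and at 7.69, 8.25 and 0 CPM in Mof+/-. All Mof+/- values were lower, with a count of 0 in replicate 3, where the floor of 3 counts is 0.446 CPM and the upper bound of the 95% interval 0.549 CPM. The log2 fold change was -1.40 (SE 1.04, adjusted p = 0.432). Without that replicate it was -0.83 (SE 0.38, adjusted p = 0.225). Fdft1 (chromosome 14, 63145150 to 63179578, minus strand) encodes squalene synthase, the branch point into sterols. It was at 65.4, 71.8 and 64.0 CPM in Mof+/+ and at 81.0, 67.5 and 106 CPM in Mof+/-. The groups overlapped through replicate 2 of each, and the log2 fold change was 0.71 (SE 0.26, adjusted p = 0.134), or 0.47 without Mof+/- replicate 3 (adjusted p = 0.214).

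Sqle (chromosome 15, 59315077 to 59331192, plus strand), the squalene epoxidase and a slow step of the pathway, had the largest fitted difference of the 7 on SD. It was at 42.8, 45.3 and 31.7 CPM in Mof+/+ and at 7.34, 8.15 and 0 CPM in Mof+/-. The lowest Mof+/+ library was well above the highest Mof+/- library, and the log2 fold change was -2.61 (SE 0.94, adjusted p = 0.126). Without Mof+/- replicate 3, in which no Sqle read was counted, it was -2.05 with an adjusted p of 0.0265. DESeq2 on all 6 libraries gave -2.67 with an adjusted p of 0.0282. In that replicate, 137 of the 8861 genes with at least 10 CPM in every SD Mof+/+ library were at 0, or 1.55%, against 6 and 8 genes in the other Mof+/- libraries. Lss (chromosome 10, 76531588 to 76557138, plus strand), the lanosterol synthase, was at 42.4, 54.8 and 27.7 CPM in Mof+/+ and at 35.0, 21.5 and 10.4 CPM in Mof+/-. The groups overlapped, and the log2 fold change was -0.57 (SE 0.44, adjusted p = 0.455). It was -0.30 without Mof+/+ replicate 2, -1.01 without Mof+/- replicate 1 and -0.24 without Mof+/- replicate 3, with adjusted p-values of 0.784, 0.193 and 0.738.

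Srebf2 (chromosome 15, 82147181 to 82205379, plus strand), whose locus also holds Mir33, encodes SREBP2. It was at 80.3, 94.9 and 119 CPM in SD Mof+/+ and at 40.5, 22.0 and 14.0 CPM in SD Mof+/-. The groups were apart, and the log2 fold change was -1.59 (SE 0.37, edgeR adjusted p = 0.046). The call held in 7 of 16 alternatives and was lost in 9. The adjusted p was 0.159, 0.13 and 0.135 without Mof+/+ replicates 1, 2 and 3, and 0.163 and 0.059 without Mof+/- replicates 2 and 3. With an offset for transcript length the log2 fold change was -1.26 (adjusted p = 0.0526), and with the third libraries exchanged as the file headings have it, -0.02. Insig1 (chromosome 5, 28071363 to 28078662, plus strand), which retains SREBP2 with its escort and is itself a target, was at 254, 459 and 208 CPM in Mof+/+ and at 67.3, 103 and 139 CPM in Mof+/-. Every Mof+/- library was below the lowest Mof+/+ library. The log2 fold change was -1.20 (SE 0.40, adjusted p = 0.105), and DESeq2 gave -1.19 with an adjusted p of 0.034. Without Mof+/+ replicate 2, which had the 459 CPM, it was -0.78 with an adjusted p of 0.294.

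**Figure D2:**
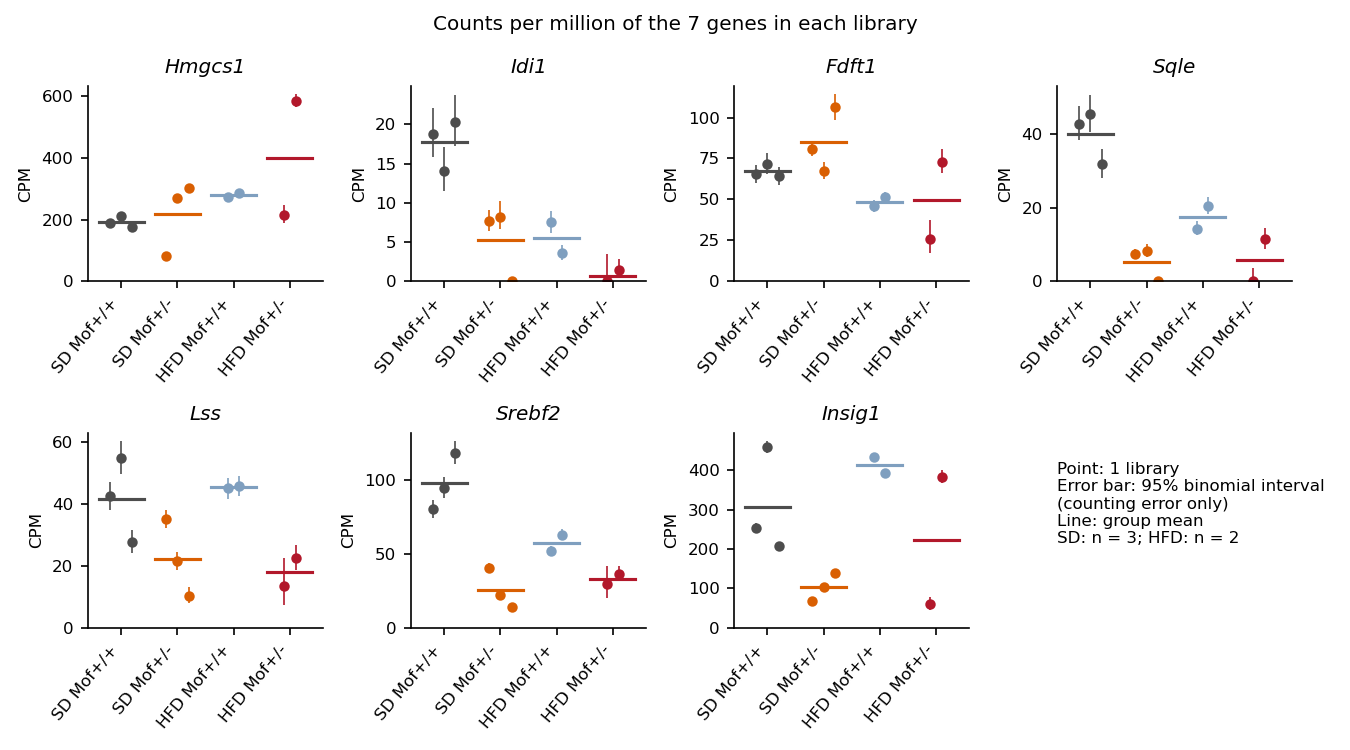
CPM of each gene by library, 1 panel per gene, with axes from 0. Points are libraries with 95% binomial intervals and lines are group means. On SD the Mof+/- points of Idi1, Sqle, Srebf2 and Insig1 lie below all Mof+/+ points, and the pair of HFD Mof+/- points is far apart for Hmgcs1, Fdft1 and Insig1.

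Other measures moved with genotype on SD, and their part in these results was not tested. The 7 endothelial markers summed to 1065 to 2696 CPM in Mof+/+ and 172 to 287 CPM in Mof+/-, with 5 of 7 called lower. The 8 adipocyte markers summed to 19100 to 25410 CPM and 34650 to 54590 CPM, with 4 of 8 called higher, and no marker of either list was at 0 in any SD library. The 10 macrophage markers summed to 1256 to 2140 CPM and 1970 to 2250 CPM, with 3 of 10 called higher, and the 7 progenitor and fibroblast markers to 3926 to 5177 CPM and 2512 to 6982 CPM, with 2 of 7 called higher. The 5 mesothelial markers summed to 21.8 to 39.5 CPM and 141 to 312 CPM, with 4 of 5 called higher. The 12 neural and myelin markers summed to 118 to 1355 CPM in Mof+/+, where replicate 2 was highest, and to 39.1 to 57.2 CPM in Mof+/-, with 3 of the 7 tested called lower. The 6 steroidogenic cell markers summed to 2.32 to 6.00 CPM in Mof+/+ and 13.3 to 89.1 CPM in Mof+/-, with 1 tested and called higher, and Cyp11b1 was at 0 in every library. Insl3 of that list had the other direction, at 3.96, 1.78 and 0.774 CPM in Mof+/+ and at 0.0582, 0 and 0 CPM in Mof+/-. The 6 hepatocyte markers summed to 1404 to 3101 CPM and 1811 to 3678 CPM, with 1 of 2 tested called higher. Most of that sum was Cyp2e1, at 1392 to 3082 CPM and 1761 to 3315 CPM, while Alb was at 5.29 to 19.2 CPM in Mof+/+ and 49.4 to 255 CPM in Mof+/- and Ttr at 0 in every library but Mof+/- replicate 2, the one with the highest sum of both lists. Across genes, the Spearman rho between CPM and exonic length was 0.135 to 0.159 in the Mof+/+ libraries and 0.0398, -0.072 and -0.218 in Mof+/- replicates 1, 2 and 3. Srebf2 is among the longer of the 7 genes at 7184 bases and Insig1 the shortest, and with the length offset Insig1 had a log2 fold change of -1.39 (adjusted p = 0.0795). Lss, the longest, had one of -0.13 with it (adjusted p = 0.871), and those of Hmgcs1, Idi1, Fdft1 and Sqle were 0.75, -1.47, 0.81 and -2.43.

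**Figure D3:**
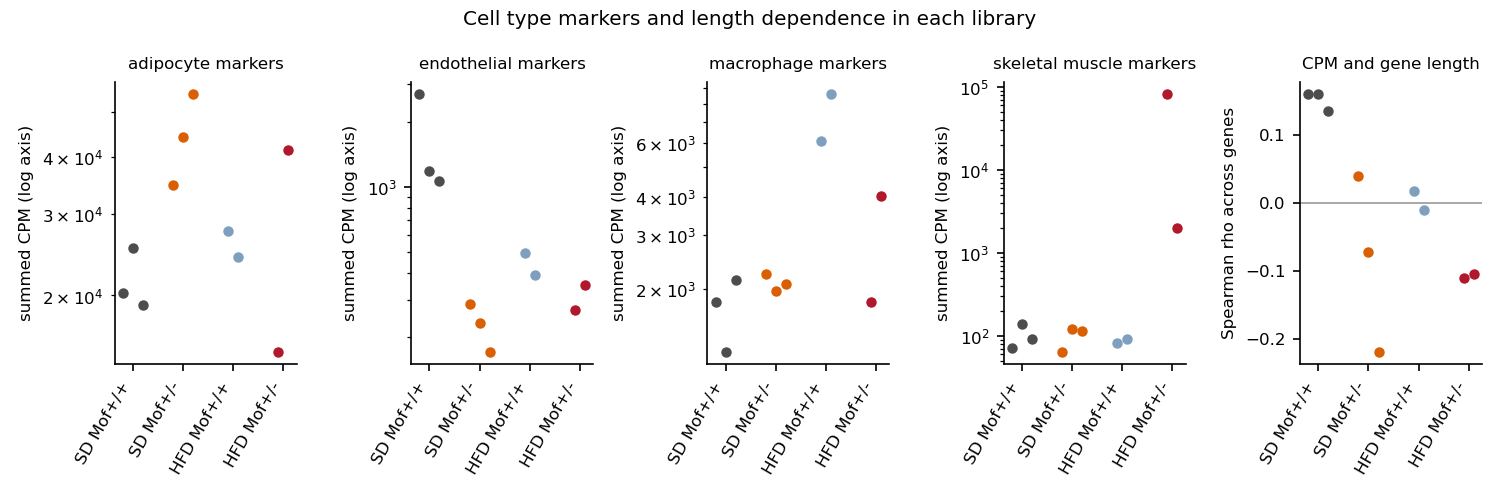
Summed CPM of 4 marker lists (log axes) and Spearman rho between CPM and exonic length, 1 point per library in the 4 groups. On SD the Mof+/- libraries hold more adipocyte and less endothelial signal than Mof+/+, and HFD Mof+/- replicate 1 holds 81600 CPM of muscle markers.

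The rest of the pathway on SD was mostly not called. Of the 6 other genes of the mevalonate branch, none passed the adjusted threshold and 1 was lower at an unadjusted p under 0.05. This was Mvd, the mevalonate diphosphate decarboxylase, at 7.31 ± 3.14 CPM in Mof+/- and 25.2 ± 12.8 CPM in Mof+/+ (SD, n = 3 each), with a log2 fold change of -1.41 (SE 0.55, adjusted p = 0.152). Of the 10 genes from lanosterol to cholesterol, 0 passed the adjusted threshold, and 2 were higher and 3 lower at an unadjusted p under 0.05. Cyp51, the lanosterol demethylase, had a log2 fold change of -1.04 (adjusted p = 0.0788) and the sterol reductase gene Tm7sf2 one of 1.44 (adjusted p = 0.177), with overlapping groups. Ebp, with the smallest p of this list, was higher without overlap, at 58.1 ± 12.1 CPM in Mof+/- and 38.9 ± 3.10 CPM in Mof+/+. Its log2 fold change was 0.94 (SE 0.27, adjusted p = 0.0725). Of the 9 other genes that control SREBP2, 0 were called. Rnf145, a ligase that acts on SCAP, had a log2 fold change of -0.86 (adjusted p = 0.0733), and Insig2, the paralogue of Insig1, one of 0.79 (adjusted p = 0.212), with overlapping groups.

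Sterol uptake and transport had 1 of 7 tested genes called higher and 2 called lower on SD, and Npc2 and Scarb1 are those given with values. Npc2, which hands cholesterol on inside the lysosome, was higher at 1184 ± 316 CPM against 522 ± 105 CPM, with a log2 fold change of 1.56 (SE 0.31, adjusted p = 0.0371). That call held in 9 of 16 alternatives and was lost without any 1 of the Mof+/+ libraries or Mof+/- replicate 2 (adjusted p up to 0.161). Scarb1, the high-density lipoprotein receptor, was lower at 62.5 ± 19.6 CPM against 211 ± 65.3 CPM, with a log2 fold change of -1.41 (SE 0.32, adjusted p = 0.0454). It held in 6 of 16 alternatives and was lost whichever of the 6 libraries was left out (adjusted p from 0.0643 to 0.172). The sterol carrier Stard4 had a log2 fold change of -1.58 (adjusted p = 0.0571). Of the LXR, efflux and esterification genes, 0 of 9 were called. Mylip had a log2 fold change of -1.14 (adjusted p = 0.0593) and Nr1h3, encoding LXR alpha, one of 0.70 (adjusted p = 0.105). Of the isoprenoid side branches 0 of 8 were called, with log2 fold changes of -0.76 for Pggt1b (adjusted p = 0.711) and -0.39 for Fntb (adjusted p = 0.561). Of the 8 SREBP1 and fatty acid synthesis genes, 1 was called. This was Srebf1, the gene for SREBP1, which was lower at 158 ± 52.3 CPM against 594 ± 178 CPM, with a log2 fold change of -1.57 (SE 0.34, adjusted p = 0.0404), while Acly had one of -1.14 (adjusted p = 0.337). The call of Srebf1 held in 9 of 16 alternatives and was lost without any 1 of the Mof+/+ libraries or Mof+/- replicates 2 and 3 (adjusted p up to 0.161).

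The same genotype comparison on HFD had 2 libraries per group. No gene of the 7 and 0 of 14120 genes tested (0%) passed the adjusted threshold of edgeR, with 12.3% of all genes but none of the 7 at an unadjusted p under 0.05. DESeq2 called 209 genes (1.48%) and 0 of the 7. The Mof+/- libraries were below both Mof+/+ libraries in 5 of 7 genes, against 45.6% of all genes tested. The median log2 fold change was -0.65 over the 7 and -0.24 over all genes.

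Hmgcs1 was at 274 and 285 CPM in HFD Mof+/+ and at 216 and 586 CPM in replicates 1 and 2 of HFD Mof+/-. The value of replicate 2 was the highest of all 10 libraries and that of replicate 1 was below both Mof+/+ libraries (log2 fold change 0.80, SE 0.48, adjusted p = 0.664). Insig1 was at 435 and 392 CPM in Mof+/+ and at 60.3 and 383 CPM in Mof+/-, so that replicate 2 lay near and replicate 1 far below the wild type (log2 fold change -0.65, SE 0.79, adjusted p = 0.851). Without replicate 1 it was 0.08, and without replicate 2 the lone replicate 1 gave -2.43 with an adjusted p of 0.0207 in a fit to the other 9 libraries. Fdft1 was at 45.9 and 51.2 CPM in Mof+/+ and at 25.9 and 73.0 CPM in Mof+/-, 1 library on either side (log2 fold change 0.32, SE 0.52, adjusted p = 0.886).

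Srebf2 was the gene whose HFD Mof+/- libraries lay closest together in proportion, at 29.7 and 36.3 CPM, both below the 51.8 and 63.1 CPM of HFD Mof+/+ (log2 fold change -0.47, SE 0.38, adjusted p = 0.764). With the offset for transcript length its log2 fold change was 0.95 and that of Lss 0.25, and those of Hmgcs1, Idi1, Fdft1, Sqle and Insig1 were 1.86, -1.81, 1.31, -0.73 and -0.03, with adjusted p-values over the 7 from 0.168 to 0.988. Lss was at 45.0 and 45.7 CPM in Mof+/+ and at 13.4 and 22.4 CPM in Mof+/-, again with both libraries lower (log2 fold change -1.02, SE 0.50, adjusted p = 0.568). Sqle was at 14.3 and 20.5 CPM in Mof+/+ and at 0 and 11.4 CPM in Mof+/-, and Idi1 at 7.49 and 3.56 CPM and at 0 and 1.45 CPM. Both counts of 0 were in replicate 1, where the floor of 3 counts is 2.87 CPM and the upper bound of the 95% interval 3.53 CPM, and in which 1804 of the 9269 genes with at least 10 CPM in both HFD Mof+/+ libraries (19.5%) were at 0. The Idi1 value of replicate 2 rested on 8 counts. The log2 fold changes were -1.29 for Sqle (SE 1.62, adjusted p = 0.857) and -2.30 for Idi1 (SE 1.40, adjusted p = 0.672). Over the alternatives they ran from -10.38 to -0.42 for Sqle and from -8.73 to -1.67 for Idi1. Without HFD Mof+/- replicate 1, in a fit to the other 9 libraries, the genotype differences on HFD were 1.26 for Hmgcs1, -1.74 for Idi1, 0.78 for Fdft1, -0.42 for Sqle, -0.83 for Lss and -0.47 for Srebf2, with adjusted p-values from 0.43 to 0.935.

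In the other lists edgeR called no gene on HFD, although Soat1 and Nceh1, among others, passed in some of the alternatives. Of the genes named by rule, those with the smallest p were Nceh1 and Soat1, which hydrolyse and form cholesteryl esters, with log2 fold changes of -2.04 (SE 0.47, adjusted p = 0.278) and -2.61 (SE 0.74, adjusted p = 0.278). Lipa of the same list, not named by the rule here, had one of -1.87 (SE 0.50, adjusted p = 0.278). Its unadjusted edgeR p of 0.0143 was below the 0.0177 of Soat1. Soat1 was at 121 ± 22.4 CPM in Mof+/+ (SD, n = 2) and at 4.79 and 26.4 CPM in replicates 1 and 2 of Mof+/-, and Nceh1 at 15.3 and 34.4 CPM in those replicates. The macrophage markers, 10 genes that summed to 6073 and 8600 CPM in HFD Mof+/+ and to 1821 and 4025 CPM in HFD Mof+/-, moved with them, and their part was not tested. The 6 brown adipocyte markers also differed, at 27.8 and 32.1 CPM in HFD Mof+/+ and 767 and 317 CPM in replicates 1 and 2 of HFD Mof+/-, against 13.0 to 76.4 CPM over the SD libraries. Most of that sum was Cox8b, at 16.2 and 22.6 CPM in HFD Mof+/+ and 650.2 and 244 CPM in HFD Mof+/-. Cidea was also higher, at 7.43 and 4.75 against 35.4 and 60.4 CPM. Dio2 had the other direction, at 0.323 and 2.00 against 0 and 0 CPM. Ppargc1a was at 2.97 and 2.37 against 0 and 6.51 CPM. Of this list, none of the 4 tested genes was called and 3 were higher at an unadjusted p under 0.05. Ucp1, the defining gene of that list, was at 0.904 and 0 CPM in HFD Mof+/+ and at 81.4 and 3.62 CPM in HFD Mof+/-, and their part was not tested either. The steroidogenic cell markers summed to 4.72 and 8.74 CPM in HFD Mof+/+ and to 0 and 0.904 CPM in HFD Mof+/-, with 0 of 2 tested called. The fitted log2 fold changes of the other genes named by rule were -0.91 for Fdps, 0.72 for Acat2, -2.11 for Hsd17b7, -1.09 for Ebp, -2.09 for Mbtps2, -0.87 for Rnf145, -1.59 for Stard4, 1.60 for Fntb, -1.40 for Ggps1, 0.90 for Acaca and 0.71 for Srebf1. Of these, Fdps, Hsd17b7, Mbtps2, Stard4 and Ggps1 were at 0 counts in replicate 1 of Mof+/-.

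The next comparison asked what HFD, with the higher age of those mice, changed in wild type WAT. None of the 7 genes passed the adjusted threshold of edgeR, where 9.75% of 14939 genes did (900 higher and 557 lower). At an unadjusted p under 0.05, the value of Hmgcs1 was higher and those of Sqle, Srebf2 and Idi1 were lower, against 28.4% of all genes (2171 higher and 2067 lower). DESeq2 called 3 of the 7, namely Sqle, Idi1 and Hmgcs1, against 2990 of all genes (20%). The groups did not overlap in 5 of 7 genes, 1 higher and 4 lower, against 49.1% of all genes tested. The median log2 fold change was -0.34 over the 7 and -0.04 over all genes.

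Hmgcs1, at 279 ± 7.79 CPM on HFD (n = 2) and 192 ± 17.0 CPM on SD (n = 3), had a log2 fold change of 0.67 (SE 0.17, adjusted p = 0.0577). Its 2 HFD libraries were close together and above all 3 SD libraries. Of the genes after it in the pathway, Idi1, Fdft1 and Sqle had the other sign. Idi1 was at 5.53 ± 2.78 CPM on HFD and 17.7 ± 3.21 CPM on SD (log2 fold change -1.55, SE 0.46, adjusted p = 0.0751), and Fdft1 at 48.5 ± 3.78 and 67.1 ± 4.14 CPM (-0.34, SE 0.18, adjusted p = 0.265). Sqle was at 17.4 ± 4.39 CPM on HFD and 40.0 ± 7.22 CPM on SD (log2 fold change -1.08, SE 0.30, adjusted p = 0.0655), and passed at 0.0369 without SD Mof+/+ replicate 3. Lss was level within its spread, at 45.4 ± 0.488 and 41.7 ± 13.5 CPM (0.24, SE 0.30, adjusted p = 0.649), and its value was 0.50 without SD replicate 2 and 0.01 without SD replicate 3. Srebf2 was at 57.4 ± 7.97 CPM on HFD and 97.9 ± 19.3 CPM on SD (log2 fold change -0.64, SE 0.22, adjusted p = 0.114). Insig1 was at 414 ± 29.8 and 307 ± 134 CPM, with overlap through the 459 CPM of SD replicate 2 (0.55, SE 0.34, adjusted p = 0.343), and the value was 0.32 without SD replicate 3. Without SD replicate 2, which was also the one with the most neural and myelin signal, Insig1 had a log2 fold change of 0.97 and an adjusted p of 0.0497.

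**Figure D4:**
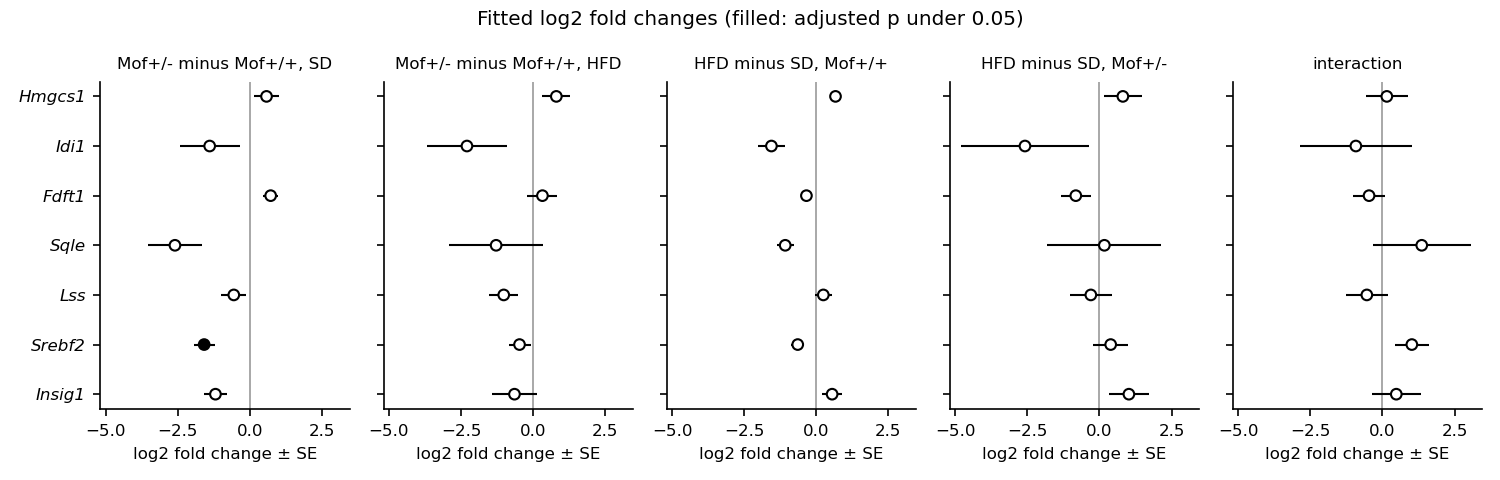
Fitted log2 fold changes of the 7 genes with standard errors in the 5 comparisons (edgeR, TMM), filled where the adjusted p was under 0.05. Srebf2 on SD, at -1.59, is the filled point, and the errors are widest for Idi1 and Sqle where libraries hold 0 counts.

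The other lists differed in how many of their genes were called in wild type WAT on HFD, and differences between lists were not tested. All 8 SREBP1 and fatty acid synthesis genes had fitted log2 fold changes below 0 on HFD, with a list median of -2.07, and 5 were called lower. Fasn, the fatty acid synthase, fell by 2.87 on the log2 scale, from 6743 ± 1664 to 850.2 ± 120.1 CPM (adjusted p = 0.00559). Acaca had a log2 fold change of -3.03 (adjusted p = 0.00356), Acly of -2.59 (adjusted p = 0.00303), Elovl6 of -2.35 (adjusted p = 0.00829) and Srebf1 of -1.79 (adjusted p = 0.0202). Of the 10 LXR, efflux and esterification genes, 7 had fitted log2 fold changes above 0 and 3 below, and 4 were called higher. These were Nceh1 with a log2 fold change of 3.85 (SE 0.39, adjusted p = 0.00478), Soat1 with 2.73 (SE 0.41, adjusted p = 0.0137), the lysosomal lipase gene Lipa with 2.42 (SE 0.22, adjusted p = 0.00353) and the cholesterol exporter gene Abcg1 with 1.86 (SE 0.35, adjusted p = 0.0252). Of the uptake and transport genes, Npc2 rose with a log2 fold change of 1.98 (SE 0.24, adjusted p = 0.00751), while Scarb1 had one of -1.14 (adjusted p = 0.0514). The 10 macrophage markers summed to 1256 to 2140 CPM on SD and to 6073 and 8600 CPM on HFD, with 8 of 10 called higher and none at 0, and the 7 endothelial markers summed to 1065 to 2696 CPM on SD and to 392 and 495 CPM on HFD, with 3 of 7 called lower. The 6 hepatocyte markers summed to 1404 to 3101 CPM on SD and to 84.7 and 23.4 CPM on HFD, with 1 of 2 tested called lower. Cyp2e1 made up most of this, at 1392 to 3082 CPM and at 74.6 and 16.1 CPM, and Ttr was at 0 in all 5 libraries. The 12 neural and myelin markers summed to 118 to 1355 CPM on SD and to 54.8 and 57.3 CPM on HFD, with 3 of 9 tested called lower. Their part in these results was not tested. The calls of the genes named in these lists, other than that of Nceh1, were lost without either HFD library and in the fit to all 10 libraries, and that of Nceh1 without HFD replicate 2 (adjusted p = 0.0832). The calls of Srebf1 and Abcg1 were also lost without SD replicate 1, and that of Abcg1 without SD replicate 2.

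Within cholesterol synthesis, Ebp, the sterol isomerase, was the gene called in wild type WAT on HFD, 1 of the 10 from lanosterol to cholesterol. It rose from 38.9 ± 3.10 to 75.0 ± 5.93 CPM (log2 fold change 1.07, SE 0.18, adjusted p = 0.0193), a call that held in 10 of 15 alternatives and was lost without either HFD library or SD replicate 1. Tm7sf2 had a log2 fold change of 1.14 (adjusted p = 0.237). None of the 6 other mevalonate genes was called, with values of -0.65 for Acat2 (adjusted p = 0.06) and 0.61 for Fdps (adjusted p = 0.674), and Acat2 was the 1 gene of this list at an unadjusted p under 0.05. None of the 9 other control genes was called, with -0.67 for Rnf145 (adjusted p = 0.0537) and -0.51 for the site-1 protease gene Mbtps1 (adjusted p = 0.109). Of the 8 side branch genes 0 were called, with -0.91 for Pggt1b (adjusted p = 0.348) and -0.82 for Fntb (adjusted p = 0.186).

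**Figure D5:**
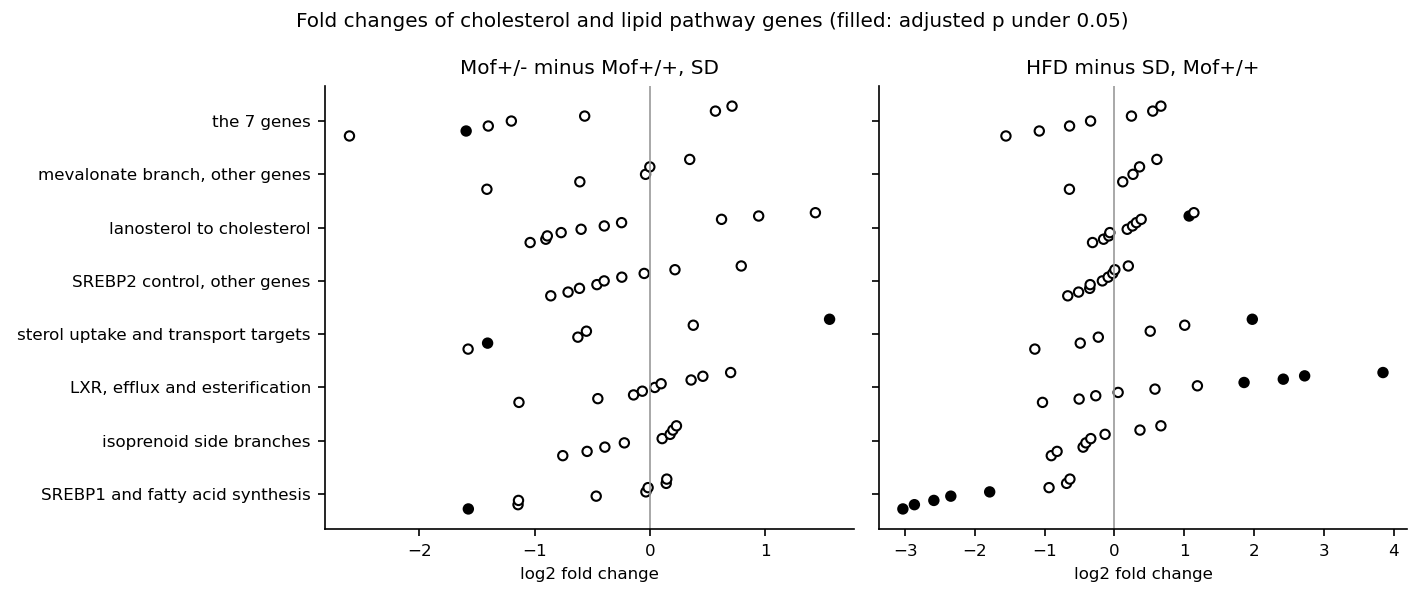
Fitted log2 fold changes of single genes by list for genotype on SD (left) and diet in Mof+/+ (right), filled where the adjusted p was under 0.05. The largest differences on HFD are in fatty acid synthesis (down to -3.03) and in efflux and esterification (up to 3.85), and the 7 cholesterol genes lie between -1.55 and 0.67 there. Not every gene of each list is drawn.

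In Mof+/- WAT, 0 of 13610 genes (0%) passed the adjusted threshold between the diets in edgeR, with 8.57% at an unadjusted p under 0.05 and 2.95% called by DESeq2. Of the 7 genes, 0 passed in either tool and 0 at an unadjusted p under 0.05. The groups overlapped in all 7, where 27.6% of all genes did not. The median log2 fold change was 0.17 over the 7 and -0.26 over all genes. The fitted values were 0.81 for Hmgcs1 (SE 0.65), -2.58 for Idi1 (SE 2.21), -0.82 for Fdft1 (SE 0.53), 0.17 for Sqle (SE 1.97), -0.30 for Lss (SE 0.72), 0.39 for Srebf2 (SE 0.60) and 1.02 for Insig1 (SE 0.69), with adjusted p-values from 0.714 to 0.992. Srebf2, for example, was at 25.5 ± 13.6 CPM on SD (n = 3) and 33.0 ± 4.70 CPM on HFD (n = 2). Without HFD replicate 1 the diet differences were 1.36 for Hmgcs1, -1.90 for Idi1, -0.29 for Fdft1, 1.09 for Sqle, -0.04 for Lss, 0.46 for Srebf2 and 1.83 for Insig1, the last with the smallest adjusted p of 0.0928. Without HFD replicate 2, the lone replicate 1 gave Fdft1 an adjusted p of 0.0184 at a log2 fold change of -1.63. Between the SD and HFD libraries of Mof+/-, the hepatocyte markers summed to 1811 to 3678 CPM and to 43.1 and 49.5 CPM, and the brown adipocyte markers to 16.8 to 34.1 CPM and to 767 and 317 CPM. Cox8b made up most of the brown adipocyte sum in each of these libraries. The steroidogenic cell markers summed to 13.3 to 89.1 CPM on SD and to 0 and 0.904 CPM on HFD, the skeletal muscle markers to 64.4 to 122 CPM and to 81600 and 1987 CPM, and the mesothelial markers to 141 to 312 CPM and to 127 and 0 CPM. None of the tested genes of these 5 lists was called, and their part was not tested. In edgeR no gene of the other lists was called. Elovl6 passed in 1 of 15 alternatives, not one with a library left out, and some other named genes passed in alternatives too. The log2 fold changes were 1.36 for Mvd, -1.16 for Tm7sf2, -1.04 for Ebp, -1.91 for Mbtps2, -0.76 for Rnf145, -0.60 for Stard4, 1.35 for Nceh1, -1.22 for Abca1, -1.67 for Ggps1, -1.38 for Pdss2, -2.15 for Elovl6 and -1.75 for Acaca.

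The interaction tested whether the genotype difference changed with diet, over all 10 libraries. It called 14 of 15897 genes (0.0881%), 4 with a more positive genotype difference on HFD and 10 with a more negative one, and none was among the 7. It rests on the SD Mof+/- libraries too, which differ from the rest in their sex-linked genes. None of the 7 passed an unadjusted p of 0.05, which 12.4% of all genes did, and DESeq2 called 0 of them and 3.08% of all genes. Srebf2 had the smallest p of the 7, with an interaction of 1.02 on the log2 scale (SE 0.59, adjusted p = 0.515). The others were 0.15 for Hmgcs1 (SE 0.73), -0.92 for Idi1 (SE 1.93), -0.47 for Fdft1 (SE 0.55), 1.36 for Sqle (SE 1.70), -0.54 for Lss (SE 0.73) and 0.48 for Insig1 (SE 0.85). Without HFD Mof+/- replicate 1 the interaction was 1.08 for Srebf2 (adjusted p = 0.507) and 1.27 for Insig1 (adjusted p = 0.454), and 0.04 for Fdft1. The call of Srebf2 on SD and its lack on HFD are therefore not shown to differ. Nor did edgeR call any gene of the 7 other pathway lists. Some of them passed in alternatives, such as Soat1, Npc2 and Nceh1. Srebf1 passed in 2 of 19 alternatives, neither of them with a library left out. Of the named genes, those at an unadjusted p under 0.05 had interactions of -2.09 for Ebp, -2.19 for Npc2, 1.35 for Scarb1, -3.13 for Soat1, -2.48 for Nceh1, 1.86 for Fntb and 2.20 for Srebf1, with adjusted p-values from 0.188 to 0.385. It was 1.13 for Mvd, -0.93 for Fdps, -2.27 for Tm7sf2, -2.01 for Mbtps2, 1.23 for Mbtps1, -1.13 for Ggps1 and 1.69 for Fasn.

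Across the 10 libraries the 7 genes did not vary as 1 unit. The correlation of each gene with the mean Z-score of the other 6, on log2 CPM, was 0.91 for Sqle (Spearman rho 0.92), 0.75 for Insig1 (0.75), 0.75 for Lss (0.61), 0.74 for Idi1 (0.38), 0.62 for Srebf2 (0.61), 0.09 for Fdft1 (-0.19) and -0.11 for Hmgcs1 (-0.32). The points share libraries and depth, and the 4 groups are not independent draws. The mean Z-score of the 7 genes ran from 0.38 to 0.74 in SD Mof+/+ and from -0.80 to -0.19 in SD Mof+/-. It was 0.34 and 0.39 in HFD Mof+/+ and -1.36 and 0.32 in replicates 1 and 2 of HFD Mof+/-. Among 11178 other genes, those with the highest correlation with this mean were Apln (r = 0.99, rho = 0.92), Kctd20 (0.98, 0.95), Rela (0.98, 0.87), Rab14 (0.98, 0.92) and Cx3cl1 (0.97, 0.94). Apln, the most alike, was at 17.1, 27.4 and 15.4 CPM in SD Mof+/+, at 2.04, 2.59 and 0.744 CPM in SD Mof+/-, at 13.7 and 11.0 CPM in HFD Mof+/+ and at 0 and 14.5 CPM in HFD Mof+/-. Of these 5 genes, 1 stayed among the leading 5 without HFD Mof+/- replicate 1 and 0 by Spearman correlation.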

How the data were processed

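Paired reads of polyA libraries (TruSeq v2, a kit that does not mark strand) were aligned by the authors with STAR (GRCm38). They deposited 1 table of raw gene counts for each library, made with featureCounts (Subread 1.5.0-p1) and not normalized. The annotation release is not given in the sources used here. Of 47937 identifiers, 47224 matched a symbol with the version dropped. Positions and exonic lengths are from GENCODE M21 (GRCm38). Reads of overlapping genes, such as Fdft1 and Ctsb on opposite strands, cannot be told apart without strand.

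Libraries were grouped by sample label. The labels speak of biological replicates, without naming the animals. edgeR 4.0.16 was used for each pair of groups, with TMM factors, filterByExpr and the quasi-likelihood test on those libraries alone, and p-values were adjusted by Benjamini-Hochberg (threshold 0.05). All 10 libraries entered the interaction. Totals of 1044355 to 17171947 counts set the precision. The floor was 3 counts, and intervals are 95% exact Clopper-Pearson, for counting error only. DESeq2 1.42.0, other scalings, filters, a replicate block, a pooled fit, the grouping by file headings, a length offset and each library left out were alternatives. Library totals as the scaling were chosen after seeing the data. The edgeR fit of each pair of groups was first tested on simulated counts with known changes. The interaction and the alternatives were not tested in this way. Computation used R 4.3.3 and Python 3.11.15.

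The 7 genes and all lists were chosen with earlier results of these data known. Named genes were the 7 and the 5 most alike in pattern by Pearson correlation of log2 CPM (prior count 1). From the 7 other pathway lists they were, in each comparison, the genes past the threshold. The 2 genes per list with the largest change and a mean of at least 50 counts were added. A few single genes, 1 of them past the threshold on SD, are exceptions to this rule and are left without values here, but list counts include them.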

Additional observations from a re-analysis of the deposited data

How the results depend on the processing

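Of the 536 values of the 7 genes under the alternatives, 484 kept their direction and their side of the threshold, 17 passed it newly, 9 lost it, each for Srebf2 on SD, and 26 reversed. Of the 1104 values of the other named genes, 6 reversed, 66 passed newly and 69 no longer passed. The cause was not tested. In the order genotype on SD, genotype on HFD, diet in Mof+/+, diet in Mof+/- and interaction, edgeR called 727, 0, 1457, 0 and 14 genes and 1, 0, 0, 0 and 0 of the 7 genes. DESeq2 called 2211, 209, 2990, 402 and 490 genes, and 3 of the 7 genes for genotype on SD and for diet in Mof+/+. Without a filter on low counts, 1840 genes and 3 of the 7 passed for genotype on SD, 429 genes for diet in Mof+/- and 380 for the interaction. With at least 10 counts in every library, 1235 genes passed for genotype on SD, 26 for diet in Mof+/- and 38 for the interaction, and 3 of the 7 for diet in Mof+/+. Scaling to library totals left 8 genes for the interaction and called 1 of the 7 for diet in Mof+/+, and of the calls for genotype on SD it had 165 of 722 higher where TMM had 462 of 727. For diet in Mof+/+ these were 645 of 1430 and 900 of 1457. With all 10 libraries in one fit, 194, 1, 142 and 189 genes passed in the 4 pair comparisons and 0 of the 7 on SD. With the length offset, 381, 97 and 91 genes passed for genotype on SD, genotype on HFD and diet in Mof+/-, with 0 of the 7 on SD. It reversed Srebf2 (0.95), Lss (0.25) and Rnf145 (0.06) for genotype on HFD, Lss (0.72) for diet in Mof+/-, and Fdft1 (0.26) and Lss (0.15) in the interaction.

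The deviations of same-numbered libraries within their groups had correlations r from -0.0410 to 0.0306. Between the HFD groups, with 2 libraries each, replicates 1 and 2 gave the same r of 0.02785, so these are not separate values. Whether same-numbered libraries share more than a number was not tested. With a replicate block, 428 genes and 0 of the 7 passed for genotype on SD, 200 genes for genotype on HFD, 245 for diet in Mof+/-, and 1 of the 7 for diet in Mof+/+, and Sqle reversed for diet in Mof+/- (-1.66). With the third SD libraries grouped by the file headings, 0 genes passed in the 4 comparisons that use them, 0 of the 7 on SD, and the values reversed for Hmgcs1 (-0.42), Idi1 (0.25), Fdft1 (-0.21), Npc2 (-0.02) and Fntb (0.24) for genotype on SD, for Sqle (-1.14) and Srebf2 (-0.57) for diet in Mof+/-, and for Sqle (-0.45), Srebf2 (-0.54) and Fdft1 (0.43) in the interaction.

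With each library left out in turn, 17 to 1026 genes and 0 to 1 of the 7 passed for genotype on SD, 0 to 3456 genes and 0 to 1 for genotype on HFD, 19 to 2230 and 0 to 1 for diet in Mof+/+, 0 to 3903 and 0 to 1 for diet in Mof+/-, and 4 to 3163 genes for the interaction. The lowest count on SD came without Mof+/- replicate 2. The highest of both HFD genotype and Mof+/- diet counts came without HFD Mof+/- replicate 2, where the shallow replicate 1 stood alone and was assumed to vary like the other groups. Ranges that crossed 0 for genotype on HFD were -0.03 to 1.26 for Hmgcs1, -2.43 to 0.08 for Insig1, -0.57 to 0.78 for Fdft1 and -0.26 to 1.22 for Srebf1. For diet in Mof+/- they were -8.89 to 1.09 for Sqle, -0.69 to 1.83 for Insig1, -0.64 to 0.16 for Lss and -9.44 to 0.33 for Stard4. For the interaction they were -0.60 to 0.68 for Hmgcs1, -7.81 to 2.15 for Sqle, -1.24 to 1.27 for Insig1, -1.29 to 0.04 for Fdft1 and -0.12 to 1.75 for Mvd. In HFD Mof+/- replicate 1, 3 counts are 2.87 CPM, and 1804 of the 9269 genes with at least 10 CPM in both HFD Mof+/+ libraries were at 0 counts, and this floor covers counting error only.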
